A study of Macaca fascicularis with 132 samples.

Results

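A set of 6 genes shared a brief spike in the RNA of cynomolgus macaque blood cells, high at 2 h of culture and back near the starting level by 24 and 48 h, with or without interleukin-15 (IL-15). The 6 were chosen from the 38550 rows of the cynomolgus count table, of which 31327 held a count and 10811 had a mean of at least 5 CPM (counts scaled to a common library total) in a control group. Counts of the 3 libraries of each animal and group were summed, scaled, put on the log2(CPM + 1) scale and averaged over the 4 animals. A gene was taken where its control mean at 2 h was at least 1.5 above that at 0 h, its means at 24 and 48 h were within 0.5 of 0 h, and IL-15 and control cultures differed by less than 0.3 at each of the 5 times. The spike, the late levels and the closeness of both kinds of culture therefore come from the choice. Test results for them are given only as a description.

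Peripheral blood mononuclear cells from 4 cynomolgus macaques (Macaca fascicularis), the females 38142 and 38155 and the males 38147 and 38157, were cultured outside the body. Control cultures without IL-15 were sampled at 0, 2, 6, 12, 24 and 48 h. Cultures given the heterodimer of IL-15 and its receptor alpha chain at 40 ng/ml were sampled at 2, 6, 12, 24 and 48 h, which asks how the cells' RNA responds to the cytokine over time. Each of the 11 groups held 12 libraries, 3 for each animal, and the animals' ages were not given in the sources used here. According to the series' design text there were 6 animals, and 4 are analysed here.

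IL-15 is a cytokine that natural killer cells and memory CD8 T cells depend on, and the receptor alpha chain presents it to the receptor's other chains on the responding cell. Blood cells also change their transcription when they are isolated and put into culture. Immediate early genes, which need no new protein to be switched on, give brief RNA peaks that fade because transcription stops and the transcripts turn over fast. Whether any of the 6 genes belongs to that class could not be asked, because none of the tables used here pairs the gene IDs with symbols (0 of 38550 matched). For the same reason the labelled cell type could not be checked against its markers, the lists of pathway genes could not be applied, and no role can be given for any of the 6. They are numbered from 1 to 6 by the size of their 2 h spike. Gene 1 is ENSMFAG00000002925, gene 2 is ENSMFAG00000002381 and gene 6 is ENSMFAG00000062119.

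Libraries held 16423972 to 87944372 counts, with a median of 27185130. Among the libraries, 3 stood apart from their sister libraries of the same animal and group: 1 each from control at 2 h (animal 38157), control at 48 h (animal 38142) and IL-15 at 24 h (animal 38147). The labels do not say whether an animal's 3 libraries per group came from separate cultures, so the animal was taken as the replicate. In a whole population of blood cells, a lower level from fewer cells of a type and from less RNA in each cell cannot be told apart.

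Gene 1 had the largest spike of the 6. In control cultures of animals 38142, 38147, 38155 and 38157, in that order throughout, it stood at 1.94, 1.05, 2.69 and 1.57 CPM at 0 h and at 11.2, 8.55, 21.03 and 13.4 CPM at 2 h. By 6 h it was at 1.80, 1.54, 2.92 and 1.84 CPM, a range that overlapped that of 0 h. Its mean was 5.04-fold higher at 2 h than at 0 h on the CPM + 1 scale, a log2 change of 2.33 ± 0.24 (SD, n = 4 animals). The added 1 holds that value down at so few CPM, and the fitted log2 change without it was 2.98 ± 0.15 (SE, edgeR). Every 2 h sum of either kind of culture, the lowest being 6.67 CPM, lay above every other sum, the highest being 3.88 CPM. Gene 1 reached the minimum of 5 CPM through control 2 h alone, with a mean of 13.5 CPM there. At the other control times its mean was at most 2.56 CPM, so nothing is read from this separation. Animal 38155 had the highest value at each of the 6 control times.

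Gene 2 was 4.31-fold higher at 2 h. It stood at 45.1, 53.5, 44 and 44.4 CPM at 0 h and at 159, 224, 219 and 223 CPM at 2 h, so the animals' ranges were far apart. At 6 h it was at 41.1, 59.1, 60.2 and 59 CPM, and at 12 h at 43, 63.3, 64.3 and 61 CPM. Animal 38142 was the lowest at every time after 0 h in both kinds of culture, but not at 0 h.

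Gene 3 was 3.63-fold higher at 2 h, at 128.1, 136, 133 and 95.6 CPM after 34.5, 49.4, 27.2 and 25.4 CPM at 0 h. It was still at 55.8, 61.1, 55.9 and 47.5 CPM at 6 h. Animal 38147 began highest, and its 2 h change of 1.45 was the smallest of the 4 while that of animal 38155, 2.25, was the largest. The 6 h sums overlapped those of 0 h only through 47.5 CPM in animal 38157 at 6 h against 49.4 CPM in animal 38147 at 0 h.

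Gene 4 was 3.27-fold higher at 2 h, at 75.5, 69.2, 102.1 and 65.1 CPM after a narrow 22, 24.1, 23.2 and 21.9 CPM at 0 h. At 6 h it was at 32.6, 28.5, 34.7 and 30.5 CPM, above all 4 values of 0 h. The share of all genes separated in this way was not counted, so nothing is read from it. The tight start, an SD of 1.05 CPM (n = 4 animals), did not hold at the peak, where the SD was 16.6 CPM.

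Gene 5 was 3.03-fold higher at 2 h, at 193, 157, 187 and 186 CPM after 55.3, 58.7, 50.9 and 72.2 CPM at 0 h. It came down to 100.2, 96.5, 103.05 and 79.1 CPM at 6 h and stood at 112.7, 85.1, 105.6 and 73.6 CPM at 12 h. All 4 sums at both times lay above the highest of 0 h. The share of all genes so separated was not counted here either, and nothing is read from it. The 12 h margin was narrow, with 73.6 CPM in animal 38157 at 12 h against 72.2 CPM in the same animal at 0 h.

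Gene 6 had the smallest spike, 2.83-fold, and animals that stayed far apart. It stood at 60.4, 44.4, 47.7 and 95.2 CPM at 0 h, 206, 176, 105.4 and 214 CPM at 2 h, 104.6, 100.7, 57.9 and 123.4 CPM at 6 h and 80.1, 85.2, 42.9 and 87.4 CPM at 12 h. Animal 38155 reached 105.4 CPM at its control peak, close to the 95.2 CPM at which animal 38157 began, and the 2 h sums overlapped those of 6 h. Within each animal the control level was higher at 2 h than at any other time. The SD of log2 CPM + 1 between animals at 0, 2 and 6 h was 0.49, 0.47 and 0.47, while among the libraries of an animal it was 0.17, 0.19 and 0.16.

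**Figure D1:**
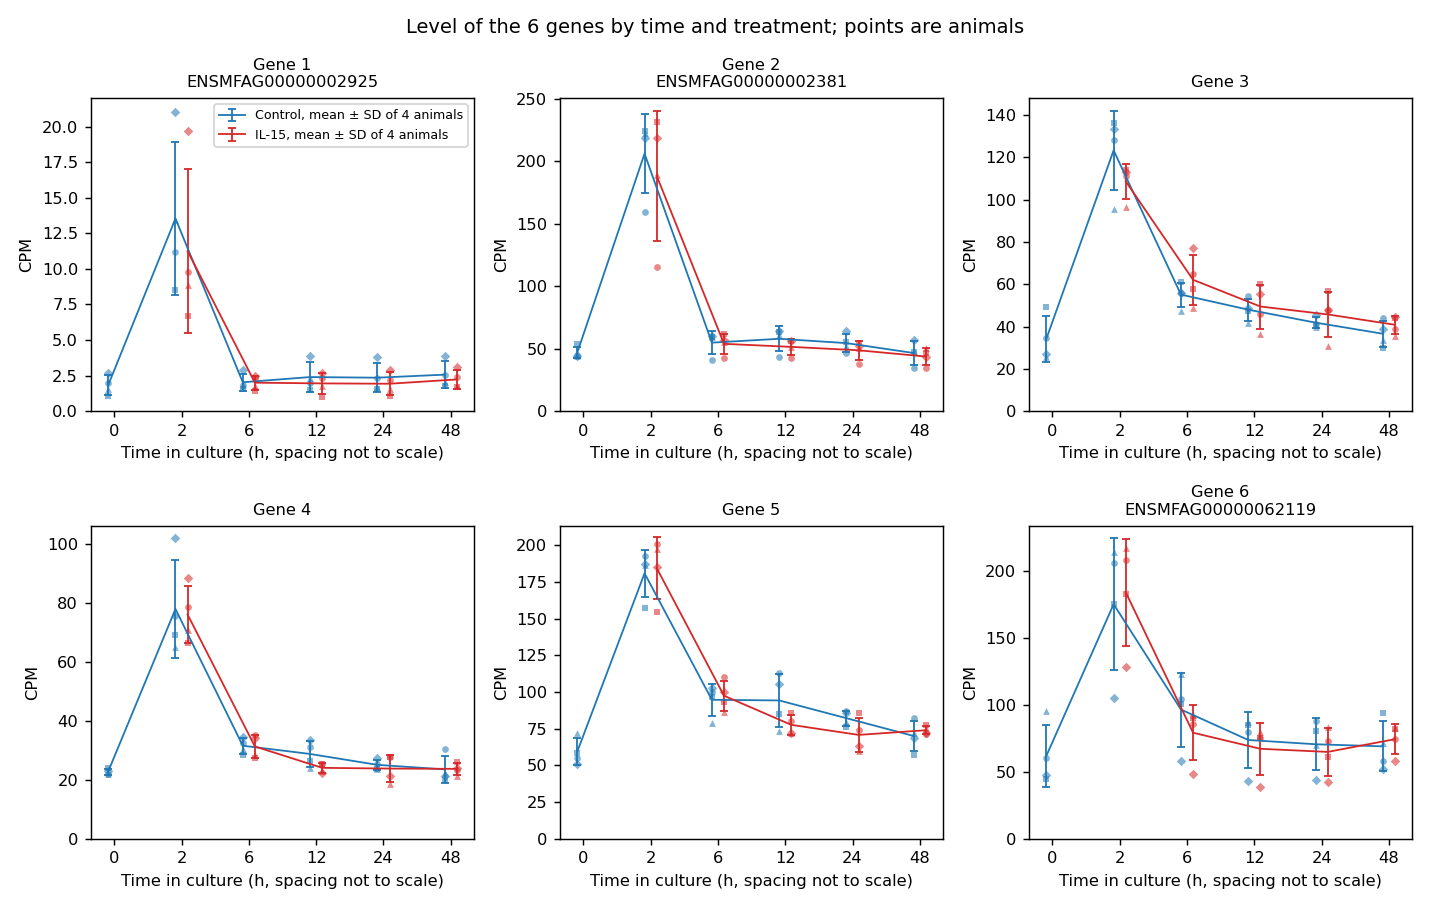
Level of each of the 6 genes in CPM (linear axis from 0) against time in culture, for control (blue) and IL-15 (red) cultures. Lines are means with SD over 4 animals, and points are animals (circle 38142, square 38147, diamond 38155, triangle 38157). Every gene peaks at 2 h, the time at which the choice asked for a rise. Gene 1 falls between 6.67 and 21.03 CPM there against at most 3.88 CPM elsewhere.

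Single libraries show the same values without the sums. For genes 1 to 5, each of the 12 control libraries of 2 h was above each of the 12 of 0 h, as for 13.3% of the 10811 genes of at least 5 CPM, and nothing is read from this count, since the same values chose the genes. The closest approach was gene 3, with 70.3 CPM in the lowest 2 h library against 57.3 CPM in the highest 0 h library. That 70.3 CPM came from the library of animal 38157 that stood apart, whose sister libraries had 109.6 and 118.1 CPM. The same library had 19.3 CPM of gene 1, against 6.89 and 10.47 CPM in its sisters, and 49.99 CPM of gene 4, against 74.8 and 77.6 CPM. It was thus high for gene 1 and low for genes 3 and 4. Without the libraries that stood apart the 2 h changes were 2.20 for gene 1, 2.07 for gene 2, 1.92 for gene 3, 1.77 for gene 4, 1.63 for gene 5 and 1.46 for gene 6, the last just under the limit of 1.5. For gene 6 the lowest 2 h library had 94.2 CPM and the highest 0 h library 103.01 CPM.

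**Figure D2:**
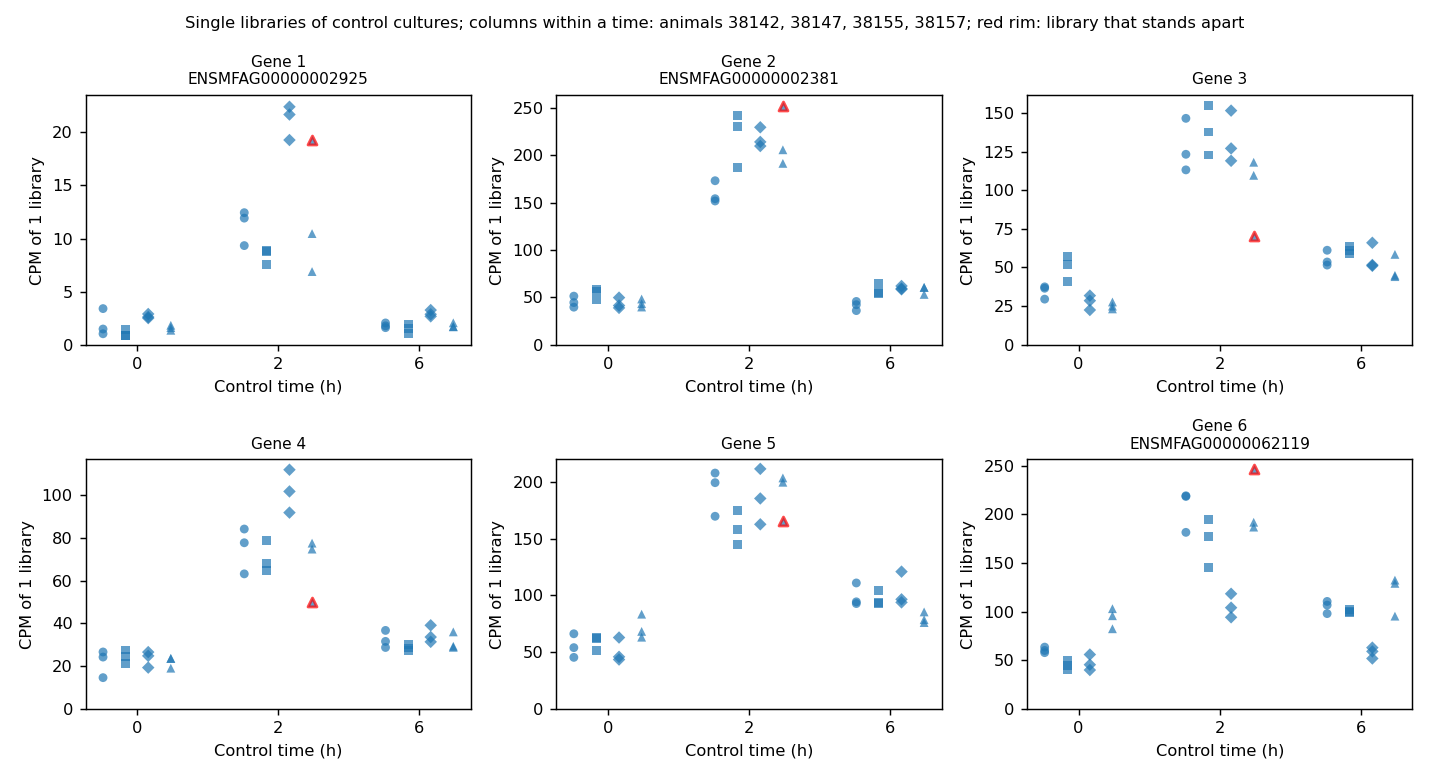
Each control library at 0, 2 and 6 h (12 per time), as CPM on a linear axis from 0, set in columns by animal. Red rims mark the 2 h library that stood apart; for genes 1 to 5 all 2 h points lie above all 0 h points, and for gene 6 the lowest 2 h library, 94.2 CPM, is under the highest 0 h library, 103.01 CPM.

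Codes in the column names, which no label explains, split the libraries into 6 sets, and 4 of these held control libraries of 0, 2 and 6 h. The 2 h change, taken within each of these 4 sets over libraries that do not hold the same animals at each time, was 1.98 to 2.66 for gene 1, 1.66 to 2.23 for gene 2, 1.76 to 2.26 for gene 3 and 1.52 to 1.81 for gene 4. It was 1.503 to 1.95 for gene 5 and 1.21 to 1.83 for gene 6. The set Lib1 GL66 held only 1 control library of 0 h, and the set Lib2 GL75 only 1 of 2 h. All these changes were above 0, but the same libraries chose the genes, so nothing is read from that. The 6 genes did not keep the same order in each set, and the cause was not tested.

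How fast the spike faded was measured at 6 and 12 h, times at which the choice of genes set no limit on the change in control culture. The share of the 2 h log2 change still present at 6 h was 5.01% for gene 1, 10.1% for gene 2, 38.6% for gene 3, 26.4% for gene 4, 41.9% for gene 5 and 43.1% for gene 6. At 12 h the shares were 10.9%, 13.8%, 28.1%, 18.3%, 40.7% and 17.5%. Genes 1 and 2, with the largest spikes, were thus close to their starting level at 6 h, while genes 3, 5 and 6 kept 38.6% to 43.1% of the spike on the CPM scale. The median was 32.5% at 6 h and 17.9% at 12 h. Over the 10811 genes of at least 5 CPM the median change from 0 h was 0.20 at 6 h and 0.26 at 12 h on this scale. With totals scaled by TMM, which brings that median close to 0, the members' medians were 21.9% and 3.56%.

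The fitted changes, which use TMM scaling, gave the same division. At 6 h, 4 of the 6 genes had risen over 0 h, where 25.5% of the 18197 genes tested were called higher (edgeR quasi-likelihood test, Benjamini-Hochberg adjusted p under 0.05, n = 4 animals, paired by animal). Gene 3 was higher by 0.52 ± 0.13 (log2, SE; edgeR adjusted p = 0.0012) and gene 5 by 0.49 ± 0.12 (adjusted p = 0.00067), both in 4 of 4 animals on the CPM scale. Gene 6 was higher by 0.44 ± 0.14 (edgeR adjusted p = 0.011) and gene 4 by 0.28 ± 0.10 (adjusted p = 0.023), again in 4 of 4 animals. Gene 1 differed from 0 h by 0.02 ± 0.15 (edgeR adjusted p = 0.91) and gene 2 by 0.03 ± 0.10 (adjusted p = 0.83). The comparison shares the 0 h sums with the choice of the genes, so it is not independent of it. The calls of genes 3 and 5 held under all 15 alternative fits, whereas gene 6 missed the threshold without animal 38142 (edgeR adjusted p = 0.069) or 38147 (adjusted p = 0.12). Gene 4 missed it without animal 38142 (edgeR adjusted p = 0.12), 38155 (adjusted p = 0.095) or 38157 (adjusted p = 0.079). Over all 15 alternatives gene 4 was called in 9, and the stricter filter on low counts (adjusted p = 0.06 by edgeR) was among those that lost it.

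At 12 h only gene 5 of the 6 was still called higher than at 0 h, where 26.4% of the genes tested were. Its change was 0.40 ± 0.12 (log2, SE; edgeR adjusted p = 0.005), with all 4 animals higher on the CPM scale by 1.01, 0.53, 1.04 and 0.03. The 2 females had the larger changes, and the call was lost without either of them (edgeR adjusted p = 0.19 without animal 38142 and 0.18 without animal 38155). Gene 3 was at 0.25 ± 0.13 (edgeR adjusted p = 0.12), and genes 1, 2, 4 and 6 were between -0.03 and 0.14. Gene 6 was higher at 12 h than at 0 h in 2 of 4 animals and lower in the other two, with 0.92 in animal 38147 and -0.15 in animal 38155.

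The step from 6 to 12 h uses neither 0 h nor any group on which the choice set a limit of change over time. The choice did limit the IL-15 effect at both times, and so tied these control groups to their IL-15 groups. For gene 6 that effect was -0.27 at 6 h, close to the limit of 0.3. The step is thus not independent of the choice. Gene 6 fell by 0.47 on the log2 scale (SE 0.14, edgeR adjusted p = 0.039), in 4 of 4 animals, and was the only one of the 6 called, where 3.4% of the genes tested were called lower. The animals' sums at 12 h and at 6 h overlapped. The call was lost without any single animal, with edgeR adjusted p between 0.073 and 0.14, although the size stayed between -0.49 and -0.44. Over all 15 alternatives the adjusted p ran from 0.00026 to 0.72. Genes 3 and 4 were lower by -0.28 ± 0.13 (edgeR adjusted p = 0.23) and -0.22 ± 0.10 (adjusted p = 0.22), and genes 1, 2 and 5 lay between -0.09 and 0.11.

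**Figure D3:**
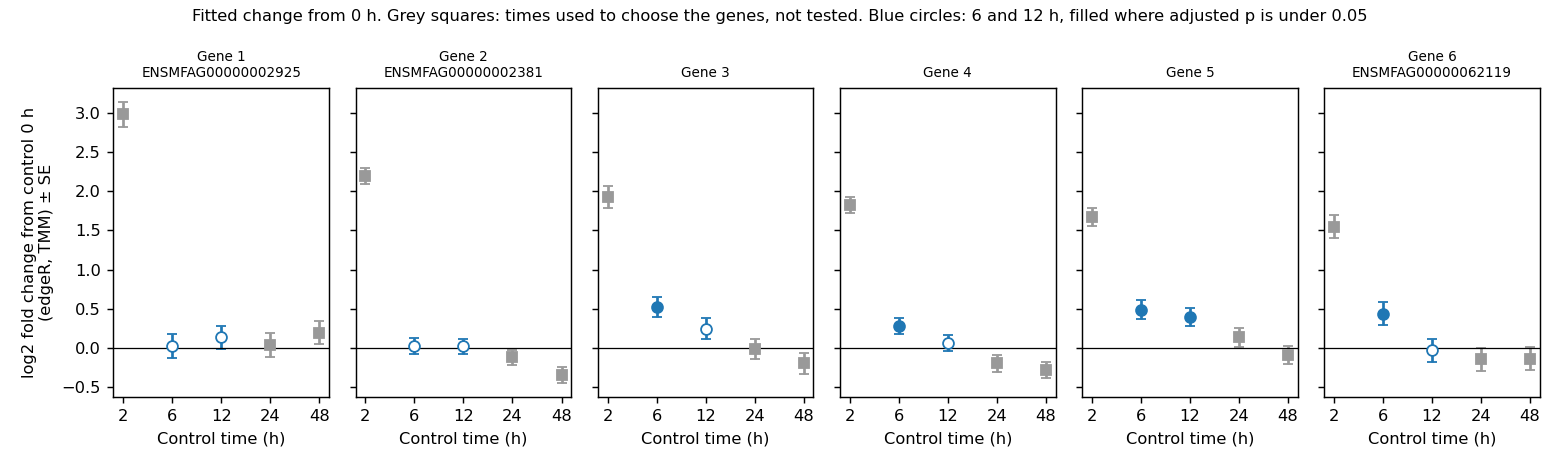
Fitted log2 fold change of each gene from control 0 h (edgeR, TMM scaling) with SE at each control time. Grey squares are times used to choose the genes and show no test result. Blue circles are 6 and 12 h, filled where the adjusted p is under 0.05. That holds for genes 3 to 6 at 6 h and gene 5 at 12 h.

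For the times the choice did use, the fitted values are given as a description. At 2 h they were 2.98 ± 0.15, 2.19 ± 0.10, 1.92 ± 0.14, 1.82 ± 0.11, 1.67 ± 0.12 and 1.55 ± 0.15 (SE) for genes 1 to 6, all 6 of them past the threshold, as were 24.5% of the genes tested. From 2 to 6 h they changed by -2.95, -2.16, -1.40, -1.54, -1.18 and -1.11, again all 6 past the threshold beside 26.1% of the genes called lower. At 24 h the fitted values lay between -0.20 and 0.14, and 0 were past the threshold by edgeR or DESeq2, or at an unadjusted p under 0.05 (55.4% of genes called in either direction). At 48 h genes 2 and 4 were under their 0 h level by -0.34 ± 0.10 and -0.28 ± 0.10 (SE), past the threshold as were 26.9% of genes called lower. On the CPM scale the same genes stood at -0.02 and 0.03 at 48 h, while the median of the 10811 genes stood at 0.33, so gene 4 changed side of 0 h with the scaling, and gene 2 stood farther under it in the fit.

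The late levels also differed between animals. At 48 h gene 6 was 1.07 above its 0 h level in animal 38147 and 0.41 under it in animal 38157 (-0.41 on the log2 CPM + 1 scale). Gene 3 was at -0.70 in animal 38147 and between 0.35 and 0.50 in the other 3. The 0.35 was that of animal 38142, whose sum held a library that stood apart. That library had 72.8 CPM of gene 3, against 30.1 and 34.7 CPM in its sister libraries. A mean within 0.5 of 0 h was thus reached by genes 3 and 6 although single animals lay farther out. For genes 1, 2, 4 and 5 no animal was more than 0.57 from its 0 h level at 48 h. That largest value was of gene 5 in animal 38142. It too held the library that stood apart, with 120.8 CPM against 63.5 and 70.3 CPM in its sister libraries.

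With IL-15 the spike was reached in the same way, as the choice demanded. At 2 h with IL-15, gene 1 stood at 9.79, 6.67, 19.7 and 8.86 CPM, under the control culture of the same animal in 4 of 4 animals, by a mean of -0.28 ± 0.20 (log2 CPM + 1, SD, n = 4 animals), close to the limit of 0.3. Gene 2 stood at 115.2, 232, 218 and 189 CPM, with most of its mean difference of -0.16 coming from animal 38142 at -0.46. Gene 3 stood at 111.2, 114.2, 113.02 and 96.4 CPM, gene 4 at 78.7, 66.3, 88.6 and 70.8 CPM, gene 5 at 201, 154, 185 and 197 CPM and gene 6 at 208, 183, 128.3 and 217 CPM. The ranges of control and IL-15 cultures overlapped at 2 h for each of the 6 genes.

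Single animals departed from the mean more than the limit of 0.3 would show. The difference between IL-15 and control cultures went from -0.56 for gene 4 at 12 h in animal 38155 to 0.55 for gene 3 at 48 h in animal 38147. Gene 6 had lower values with IL-15 at 6 h in all 4 animals, by -0.28, -0.16, -0.24 and -0.41, and at 12 h, by -0.08, -0.18, -0.15 and -0.13. At 12 h the median over the 10811 genes was -0.15 on this scale, and the fitted value of gene 6 with TMM scaling was 0.05 (SE 0.14), on the other side of 0, while its fitted value at 6 h was -0.24 (SE 0.14). Gene 5 was split at 12 h, with -0.48 and -0.54 in the females 38142 and 38155 and 0.01 and -0.03 in the males. By edgeR none of the 6 passed the threshold for IL-15 at any time, where in time order 2.16%, 8.66%, 31.5%, 39% and 40.2% of genes did. At an unadjusted p under 0.05 the numbers were 2, 0, 0, 1 and 0 of the 6 at 2, 6, 12, 24 and 48 h, and DESeq2 called 0 at each time. Nothing is read from these counts, since the limit on the IL-15 effect chose the genes.

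**Figure D4:**
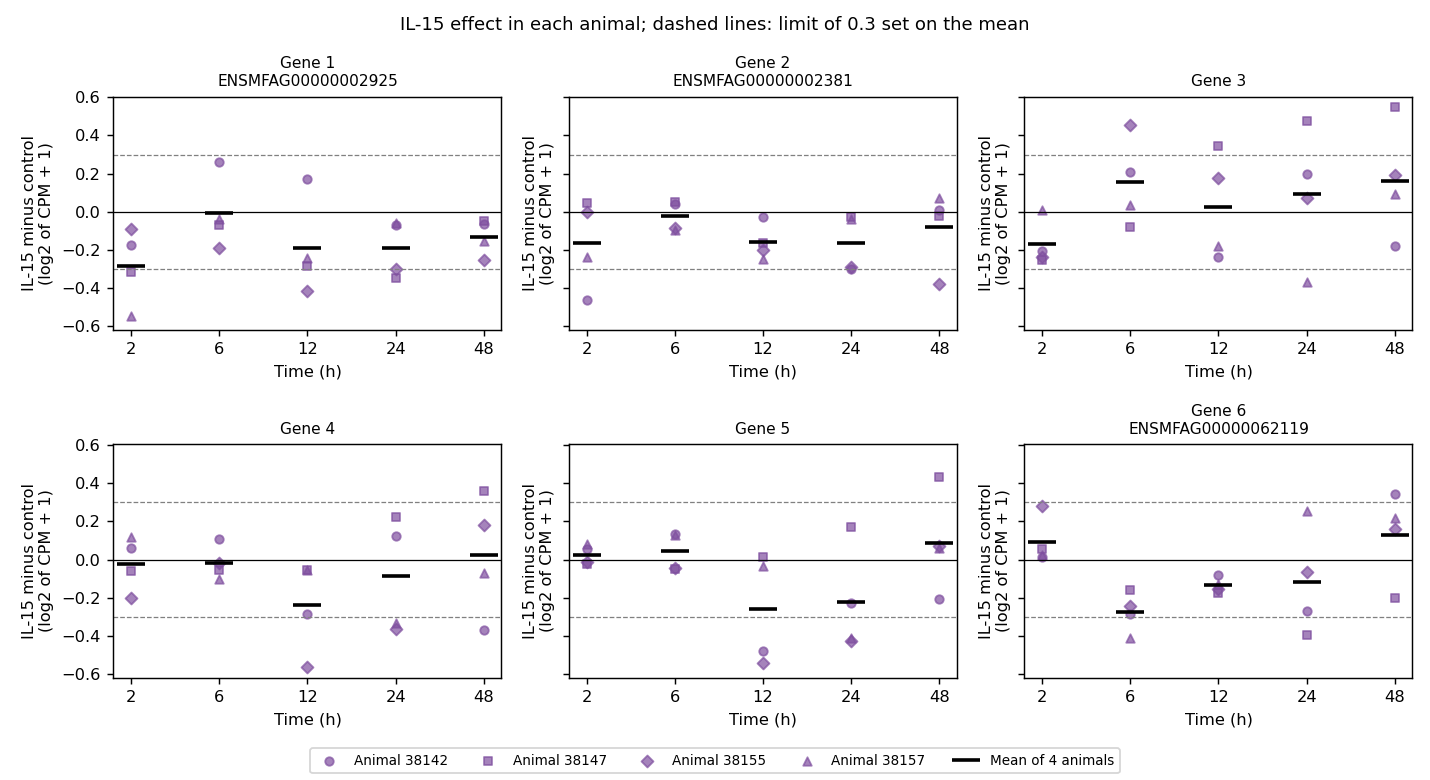
Difference between IL-15 and control culture of each animal (log2 of CPM + 1) at each time, with the mean of 4 animals as a bar and the limit of 0.3 on that mean as dashed lines. The means stay inside the limit by the choice of the genes, while single animals range from -0.56 to 0.55.

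At 48 h 1 of the libraries that stood apart was a control. The control library of animal 38142 that stood apart had 72.8 CPM of gene 3, 51.7 CPM of gene 4 and 120.8 CPM of gene 5, against at most 34.7, 24.3 and 70.3 CPM in its sister libraries. It was low for gene 2, at 19.5 CPM against 36.6 and 43.2 CPM, and for gene 6, at 26.4 CPM against 64.4 and 77.6 CPM. Without the 3 libraries that stood apart, genes 3, 4 and 5 differed between IL-15 and control at 48 h by 0.37, 0.26 and 0.27 on the fitted log2 scale. With them the same genes were at 0.26, 0.13 and 0.20. These differences are given as a description, since the IL-15 limit at 48 h chose the genes and the alternative was added after the data were seen.

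In cultures with IL-15 the step from 6 to 12 h had only gene 4 past the threshold, lower by -0.30 ± 0.10 (log2, SE; edgeR adjusted p = 0.043), where 7.45% of genes were called lower. Its sums went from 35.2, 27.4, 34.3 and 28.4 CPM to 25.4, 25.5, 22.4 and 22.98 CPM, lower in 4 of 4 animals, and the 4 sums of 12 h were all under those of 6 h. The share of all genes with such a separation was not counted, so nothing is read from the gap. The call was lost without animal 38142, 38155 or 38157 (edgeR adjusted p = 0.17, 0.22 and 0.088). Gene 6, which fell over the same step in control culture, was at -0.18 ± 0.14 (edgeR adjusted p = 0.43). The difference between both kinds of culture over this step was tested, and none of the 6 passed (edgeR, lowest adjusted p = 0.62; 0.0989% of genes passed). The IL-15 groups are held within 0.3 of the control groups by the choice, so they give no separate support for the control result. The choice thereby also limits how far the IL-15 effect could change between times, and nothing is read from any test of that change. From 2 to 6 h, 12 to 24 h and 24 to 48 h none of the 6 passed for a change in the IL-15 effect either, where 1.62%, 0.561% and 3.03% of genes did (edgeR). At an unadjusted p under 0.05, 1 of the 6 differed from 2 to 6 h and 0 over each of the other 3 steps, and DESeq2 called 0 over each step.

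Females and males were compared in the change from 0 h, which the mean over animals did not use. None of the 6 passed at 2 h or 6 h by limma, and 0 (0%) of the 18197 genes did, while 756 and 797 genes had an unadjusted p under 0.05. edgeR's interaction test also called 0, with 988 and 530 unadjusted. The difference of females minus males at 2 h lay between -0.33 and 0.42 over the 6 genes, and at 6 h between -0.42 and 0.47. Gene 5, split by sex at 12 h, did not pass there either. Its difference in the control change from 0 h was 0.78 (adjusted p = 0.91 by limma, 0.57 by edgeR). In the IL-15 effect at 12 h it was -0.46 (adjusted p = 0.58 by limma, 0.89 by edgeR). With 2 animals of each sex an exact permutation test of a single gene cannot go below p = 0.333.

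Most genes with a 2 h rise of this size did not come back. Of the 10811 genes of at least 5 CPM, another 265 had the same 2 h change of 1.5 or more. A median of 63.3% of their change was left at 6 h. Of these, 30 came back within 0.5 at 24 and 48 h but went past 0.3 for IL-15 at some time, and 68 stayed within the IL-15 limit but did not come back. The 30 had a median of 13.95% of their change left at 6 h and 14.99% at 12 h, beside 32.5% and 17.9% for the 6. The 68 kept 68.7% at 6 h and 70.7% at 12 h. The 30 differed from the 6 in the IL-15 limit alone. At 12 h the median share of the 6 lay near that of the 30. At 6 h it did not, with a median change of 0.55 for the 6 and 0.29 for the 30. The changes of the 30 at 6 h ran from -0.53 to 1.38, a range that held all of the 6, from 0.12 to 0.72. Genes 1 and 2 kept 5.01% and 10.1%, less than the median of the 30. Sets were split by these same measures, so no test compares them.

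**Figure D5:**
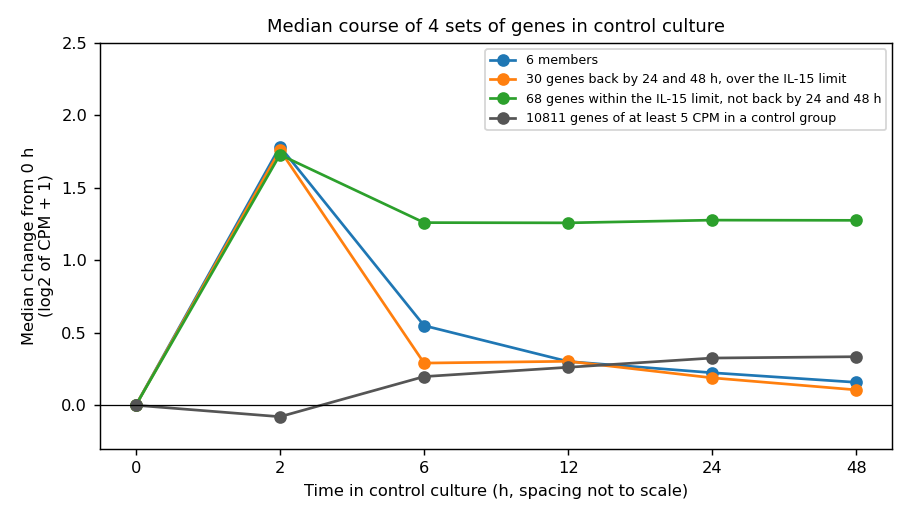
Median change from control 0 h (log2 of CPM + 1, linear axis) over time for the 6 genes, the 30 that came back but passed the IL-15 limit, the 68 that kept within it but did not come back, and all 10811 genes of at least 5 CPM. At 12 h the 6 and the 30 meet near 0.30 while the 68 stay near 1.26.

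The limits cut through a continuous range. The smallest 2 h change among the 6 was 1.501, for gene 6, and the largest among genes that met every other limit but missed this one was 1.479. Of 1889 genes that missed only the 2 h minimum, 23 had a change of at least 1.2 and 55 of at least 1. Another 15 genes missed only 1 of the other limits, 8 of them the IL-15 limit at a time and 7 the late limit. The largest late change among the 6 was 0.474, for gene 5 at 24 h, against 0.513 for the nearest gene outside. Their largest IL-15 difference was 0.282, for gene 1 at 2 h, against 0.301 outside. Among 14 other settings of the same rule, gene 2 was chosen in 14, gene 3 in 13, gene 4 in 12, gene 5 in 9, gene 1 in 8 and gene 6 in 7. These counts include the CPM minima of 1 and 10, which could drop none of the 6. The lowest control mean at 2 h among them was 13.5 CPM, for gene 1.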

How the data were processed

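The authors deposited whole-number counts per gene for 132 libraries, in a cynomolgus and a rhesus table, not normalized (from the values). Per the labels' protocols, column-purified RNA went into mRNA libraries of the KAPA HyperPrep type. Aligner, counter, genome build and annotation were not given in the sources used here. All columns matched a sample by name. Libraries held 16423972 to 87944372 counts. Reads carry no molecular identifiers, so they are not independent molecules.

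The members and lists were chosen with earlier results of these data known. Counts were summed per animal and group (44 sums). Sister libraries differed beyond sampling noise in all 132 pairs (lowest chi-square per degree of freedom 3.57). edgeR 4.0.16 (R 4.3.3; TMM, filterByExpr, robust quasi-likelihood fit, animal term, all 11 groups) tested 18197 genes, with Benjamini-Hochberg adjusted p under 0.05 as the threshold. limma 3.58.1 compared the sexes on each animal's log2 change (prior count 2), and DESeq2 1.42.0 was an alternative. The animals pair the sums: deviations of the sums of 1 animal from the group means correlated above 0.1 in 20 of 20 pairs (lowest 0.578). The scripts were checked on simulated data. A library stood apart where its log2 distance (root mean square) from the closer sister library passed 0.378, the median (0.186) plus 5 scaled median absolute deviations. IDs were to be printed, without symbols, for at most the 2 largest 2 h changes and at most 2 genes that fell past the test from 6 to 12 h. Alternatives were other normalization, filters, tools, blocks, pseudocounts and CPM minima, and leaving out animals or libraries. The rhesus table by symbol could not be run.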

Additional observations from a re-analysis of the deposited data

Results flagged for a closer look

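Among the 66 sets of 4 animals (6 genes in 11 groups), 8 held an animal far from the other 3 by Dixon's gap test, where chance gives about 1 in 20 sets, or 3.3. The sets of 1 gene share animals and are not independent. Gene 2 (ENSMFAG00000002381) accounted for 4: animal 38147 was high at control 0 h with 53.5 CPM, and animal 38142 was low in control culture at 2 h with 159 CPM, at 6 h with 41.1 CPM and at 12 h with 43 CPM. Gene 6 (ENSMFAG00000062119) accounted for 3, all with animal 38155 low: 42.9 CPM at control 12 h, 48.8 CPM at IL-15 6 h and 38.4 CPM at IL-15 12 h. For gene 3, animal 38157 was low at IL-15 2 h with 96.4 CPM.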

How the results depend on the processing

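The number of genes that met the rule moved with its settings. It was 6, and became 12 with a pseudocount of 5, 28 with CPM from TMM-scaled totals and 3 to 12 without each animal in turn (8 without animal 38142, 3 without 38147, 12 without 38155, 11 without 38157). Of the original 6, 2 were left without animal 38147. With a pseudocount of 5, without animal 38142 or 38157, and without any 1 library number, 4 were left, and 5 without animal 38155, with the mean of the libraries' CPM or with TMM-scaled totals (gene 1 lost). Without the libraries that stood apart, an alternative chosen after seeing the data, it was 7, with 4 of the 6. With TMM-scaled totals the median share of the 2 h change left was 21.9% at 6 h and 3.56% at 12 h, in place of 32.5% and 17.9%.

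All 6 genes stayed past the threshold at 2 h over 0 h and at 6 h under 2 h in the 15 alternative fits. Nothing is read from this, since the 2 h change chose the genes. The counts below for 48 h and for IL-15 are also descriptions, since the choice limited those values. The 4 genes higher at 6 h became 2 without the animal term and 2 to 3 without each animal. The 1 gene higher at 12 h became 0 with each contrast fitted alone and 0 to 2 without each animal. The count of 2 genes lower at 48 h became 0 when fitted alone or without the animal term, 1 without library number 2 or 3, 3 without library number 1 or without the libraries that stood apart, and 1 to 2 without each animal. Without animal 38147 neither gene 2 nor gene 4 was called, and the 1 called was gene 6. The 1 gene lower at control 12 h than 6 h became 2 when fitted alone, and 0 without a filter, without the animal term, without library number 2 or 3 and without each animal. In IL-15 culture the same count of 1 became 2 when fitted alone, 0 without a filter, without the animal term and without library number 1 or 3, and 0 to 2 without each animal. For IL-15 against control, 0 became 2 at 2 h and 1 at 6 h when fitted alone, 3 at 48 h without the libraries that stood apart and 0 to 1 at 24 h without each animal; the change of the IL-15 effect from 2 to 6 h became 1 when fitted alone.

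The library numbers did not pair the samples: same-numbered libraries correlated above 0.1 in 30 of 60 pairs. With animal by library number as a replicate block on single libraries, which counts libraries as replicates, the counts were 2 at 12 h over 0 h, 1 lower at 24 h, 3 at 12 h under 6 h in control and 3 in IL-15 culture, 1 for IL-15 at 24 h, 1 at 48 h and 1 for the change of its effect from 2 to 6 h.

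Over the 4 comparisons of 6 and 12 h, the sign changed in 39 of 360 values, and over all 17 comparisons in 173 of 1530; 0 of these were past the threshold before or after, and the cause was not tested. The 39 follow. At 6 h over 0 h, gene 1 was at -0.021 without the animal term, -0.0075 with the replicate block, -0.13 without library number 3, -0.030 with the stricter filter and -0.095 to 0.12 without each animal. Gene 2 at 6 h was at -0.026 with the stricter filter and -0.044 to 0.15 without each animal. At 12 h over 0 h, gene 1 was at -0.20 without library number 3. Gene 2 was at -0.00048 with the stricter filter, -0.036 without library number 3 and -0.061 to 0.13 without each animal. Gene 4 was at -0.0082 without library number 2 and -0.016 to 0.17 without each animal. Gene 6 was at 0.0011 fitted alone, 0.010 without the animal term and -0.19 to 0.11 without each animal. At control 12 h over 6 h, gene 1 was at -0.070 without library number 3. Gene 2 was at 0.026 with the stricter filter, 0.0088 fitted alone, 0.045 without library number 2 and -0.018 to 0.031 without each animal, and gene 5 at -0.18 to 0.0039 without each animal. In IL-15 culture over the same step, gene 1 was at 0.011 by DESeq2, 0.043 without the animal term, 0.014 with the replicate block, 0.053 and 0.062 without library number 2 or 3 and -0.078 to 0.16 without each animal. Gene 2 was at -0.015 with the stricter filter, -0.00028 without the animal term, -0.012 with the replicate block, -0.041 without library number 1 and -0.042 to 0.071 without each animal.

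The rhesus count table on its own, also an alternative chosen after seeing the data, gave 6 genes under the rule. Which of them correspond to the 6 was not established by ID, because no table used here links the IDs of both. The rhesus gene nearest in log2 CPM + 1 over the same libraries met the rule for genes 2, 3 and 4, but not for genes 1, 5 and 6. The distance (root mean square) was 0.016 to 0.041 for genes 2, 3 and 4. It was 0.097 for gene 6, 0.24 for gene 5 and 0.40 for gene 1. The second nearest rhesus gene lay at 0.265 to 0.361 for genes 2, 3 and 4 and at 0.371 for gene 6. For genes 5 and 1 it lay at 0.244 and 0.429, hardly farther than the nearest, so nothing is read from their nearest gene. The nearest to gene 6 had a 2 h change of 1.46, just under the limit of 1.5.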
